A study of Homo sapiens with 22 samples.

Results

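PC9, an established line of human lung adenocarcinoma cells, grows on an activated mutant EGFR. The labels name a derivative of it that is tolerant to WZ4002, a covalent inhibitor made against mutant EGFR, and these cells were compared here with parental PC9 cells while both were in WZ4002. The comparison used 4 of the 22 libraries of the series, 2 of WZ4002-tolerant cells given WZ4002 and 2 of parental cells given WZ4002, chosen by their labelled population and drug. Each treatment lasted 24 h, and the labelled dose is 1 mM, a unit that is in doubt because such inhibitors are usually given to cells in the micromolar range. Because both arms received the drug, the comparison asks which transcripts differed between tolerant and parental cells in the presence of the inhibitor. Of the 4 further groups used beside it, WZ4002-tolerant and parental cells received vehicle, gefitinib-tolerant and parental cells received gefitinib, and each group had 2 libraries. How the tolerant cells were derived, whether they are clones, and how long they had been free of drug or in it before the treatment are not given in the sources used here.

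EGFR passes growth signals through the ERK kinase cascade, which induces its own brakes and the early cell cycle genes, and through PI3K and AKT, which hold FOXO transcription factors out of the nucleus. Inhibition of the receptor therefore lowers ERK target genes and releases FOXO targets in cells that depend on it. Drug-tolerant cells are those that survive an inhibitor without a known resistance mutation, and they are known in lung cancer for altered cell state, matrix contact and signalling through other receptors.

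The libraries of the series held 23.6 to 50.4 M reads as read from the steps of the deposited CPM (counts scaled to the reads of a library), and the 4 compared here held 32.7 to 48.2 M. The 2 parental libraries under WZ4002 stood further apart than those of most groups, with a root mean square SD between them of 0.325 on the log2 scale, against 0.228 for the tolerant pair and 0.1004 to 0.3254 over the 11 groups. Mitosis and cholesterol synthesis genes were among those that differed within the parental pair, so results on them are given with and without each library. The labels do not say whether the 2 libraries of a group came from separate cultures, so the p-values speak only to the spread between libraries of a group. That spread was pooled over the 11 groups, so the wider spread of the parental pair was not used on its own. Part or all of the spread may be technical. Epithelial markers were high in all 4 libraries, with KRT18, a simple-epithelium keratin, at 382 and 319 CPM in tolerant and 615 and 680.3 CPM in parental cells. Of the lung adenocarcinoma markers, NKX2-1 and NAPSA were near absent, while MUC1, described further below, was expressed in all 4 libraries. NKX2-1 was at 0.66 and 0.31 CPM in tolerant and 0.43 and 0.19 CPM in parental cells, and NAPSA at 0.78 and 0.77 against 1.32 and 1.29 CPM.

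Tolerant and parental cells differed widely under WZ4002. Of 15485 genes tested, 5675 (36.6%) passed an adjusted p of 0.05 in limma, 2733 (17.6%) higher and 2942 (19%) lower in tolerant cells, and 1897 of them differed at least 2-fold. With the spread taken from the 4 libraries alone instead of all groups, 2785 genes passed. The median difference over all genes was -0.02 on the log2 scale. Here and below a difference is that of the group means of log2(CPM + 1), tolerant minus parental, with its SE, and 2 values per population are given in the order of the replicate numbers. The pseudocount makes the difference of low genes smaller than the ratio of their CPM. The count fell to 3015 without the 2nd tolerant library and was 4412 to 5159 without any other single library.

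The 20 largest rises in tolerant cells included the matrix genes FN1, THBS1 and COL5A1 and the target ANKRD1 of the YAP coactivator. FN1, which encodes fibronectin, was at 2759 and 1894 CPM in tolerant and 90.4 and 53.3 CPM in parental cells, a difference of 5.02 ± 0.46 (adjusted p = 1.94e-06). THBS1, the matrix glycoprotein thrombospondin, was at 267 and 464 against 9.52 and 16.9 CPM (4.68 ± 0.40, adjusted p = 9.82e-07). INHBA, the subunit of the TGF-beta family ligand activin A, was at 106 and 159.5 against 2.33 and 2.70 CPM (5.22 ± 0.44, adjusted p = 9.82e-07). For each of these genes both tolerant libraries lay above both parental ones, which the rule for the 20 largest rises required.

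Among the other genes of the 20 largest rises, SPOCK1, a secreted proteoglycan, differed by 4.49 ± 0.40, the multidrug transporter gene ABCG2 by 4.05 ± 0.32, the adhesion molecule gene MCAM by 4.01 ± 0.27 and the cytokine gene IL32 by 4.02 ± 0.34. ABCG2 stood at 44.97 and 60.1 CPM in tolerant and 2.79 and 1.70 CPM in parental cells (adjusted p = 5.77e-07). RASGRP1, an exchange factor that activates RAS, was at 17.1 and 17.2 against 0.18 and 0.06 CPM (4.02 ± 0.44, adjusted p = 9.64e-06). The metalloprotease genes ADAMTS12 and ADAMTS9 differed by 3.94 ± 0.41 and 3.81 ± 0.32, and ODC1, the first enzyme of polyamine synthesis, by 3.72 ± 0.50. The same rule left out genes with overlapping populations, so the lack of overlap here is no separate result. The 2 tolerant libraries themselves differed for ODC1, at 65.2 and 151 CPM.

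**Figure D1:**
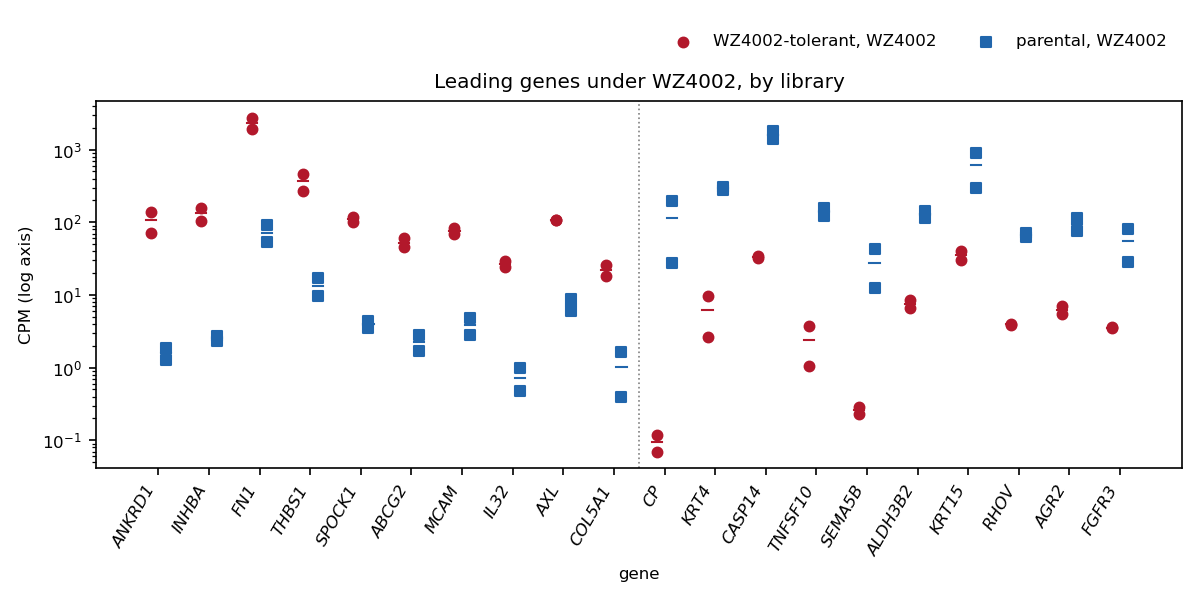
CPM on a log axis of 10 genes that were higher (left of the dotted line) and 10 that were lower (right) in WZ4002-tolerant cells (circles) than in parental cells (squares), all under WZ4002. Each point is a library and each short line the mean of its pair. No gene shown has overlapping groups, which the rule for the largest differences required.

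Of 32 matrix, integrin and proteolysis genes tested, 20 were higher and 1 lower, with a median difference of 0.96. The laminin chain gene LAMA3, part of the epithelial basement membrane, was at 265 and 253 against 35.1 and 16.3 CPM (3.38 ± 0.27). Integrin subunit genes moved with it, ITGA2 by 3.15 ± 0.24, ITGAV by 2.18 ± 0.30, ITGB6 by 2.34 ± 0.32 and ITGB1 by 1.56 ± 0.17. In RNA from whole cultures, fewer cells of a kind and less RNA per cell cannot be told apart. The fibrillar collagen gene COL5A1 was at 18.5 and 25.8 against 0.40 and 1.64 CPM (3.57 ± 0.30). The 1 gene that fell was MMP7, a matrix metalloprotease of epithelial cells (-1.81 ± 0.34, adjusted p = 0.000954), and 3 were lower without the 2nd parental library.

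Of 15 YAP target genes tested, 8 were higher and 2 lower, with a median of 1.504. ANKRD1, a widely used YAP reporter gene, was at 72.2 and 139 CPM in tolerant and 1.29 and 1.87 CPM in parental cells, a difference of 5.31 ± 0.42 (adjusted p = 5.77e-07). F3, which encodes tissue factor, was at 409 and 603 against 83.97 and 109 CPM (2.36 ± 0.25), and TGFB2, a TGF-beta ligand, at 160.0 and 132 against 41.5 and 34.3 CPM (1.92 ± 0.26). The secreted matricellular genes CCN2 and CCN1 differed by 2.21 ± 0.40 and 1.90 ± 0.39. The members that fell were NT5E, the surface nucleotidase CD73 (-1.12 ± 0.27), and AMOTL1, a junctional YAP partner (-0.72 ± 0.18). AMOTL1 did not pass without the 2nd parental or the 2nd tolerant library, and 3 members were lower without the 1st parental one.

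YAP reaches DNA through TEAD factors, and GGAATG is the core of their binding motif. Promoter windows from RefSeq (build GRCh38.p14), each of 300 bases from 250 before to 50 after the start of the gene, were searched on both strands. A window was matched by symbol for 11 of the 15 YAP targets, and 5 of these held the letters, against 14.05% of 27305 promoter windows of all genes and 10.92% of the 10717 of tested genes. The windows of ANKRD1 (chr10:90921038-90921337, minus strand) and TGFB2 (chr1:218345086-218345385, plus strand) are shown because both genes were higher in tolerant cells and hold the letters, marked in capitals. They lie 220 and 128 bases before the start of ANKRD1 and 185 bases before that of TGFB2. A match describes these letters only and is no evidence of binding.
ANKRD1: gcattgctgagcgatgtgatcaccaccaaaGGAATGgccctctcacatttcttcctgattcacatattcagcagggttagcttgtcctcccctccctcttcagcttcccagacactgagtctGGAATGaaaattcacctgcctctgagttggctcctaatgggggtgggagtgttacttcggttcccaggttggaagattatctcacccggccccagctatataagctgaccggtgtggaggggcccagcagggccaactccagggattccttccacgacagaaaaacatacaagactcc
TGFB2: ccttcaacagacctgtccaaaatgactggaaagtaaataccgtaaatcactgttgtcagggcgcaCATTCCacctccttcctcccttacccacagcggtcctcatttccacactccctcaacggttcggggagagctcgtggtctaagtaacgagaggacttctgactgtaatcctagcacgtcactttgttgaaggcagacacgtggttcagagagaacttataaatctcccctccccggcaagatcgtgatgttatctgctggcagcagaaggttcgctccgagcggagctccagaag

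Receptor kinases outside the EGFR family also differed, with 6 of 14 receptor and ligand genes higher and 2 lower (median 0.41). AXL, a receptor tyrosine kinase known from resistance to EGFR inhibitors and also a member of the YAP list, was at 108 and 107 CPM in tolerant and 5.94 and 8.81 CPM in parental cells, a difference of 3.72 ± 0.27 (adjusted p = 3.72e-07). Its ligand gene GAS6 was at 73.7 and 94.8 against 9.58 and 16.7 CPM (2.63 ± 0.35, adjusted p = 5.16e-05). Both libraries of tolerant cells were above both parental libraries for the receptor and for the ligand. AXL was among the largest rises, whose rule required this. GAS6 was named for its low p in the same libraries, so its separation is no independent support. FGFR3 went the other way, at 3.63 and 3.46 against 28.4 and 81.4 CPM (-3.44 ± 0.32), as did the insulin receptor gene INSR (-1.39 ± 0.20), while FGFR1 was higher by 0.73 ± 0.19 and MET by 0.70 ± 0.21. The last 2 did not pass without the 1st parental or the 2nd tolerant library, nor MET without the 1st tolerant one. Of the 14 genes, 3 were higher without the 2nd tolerant library, and 3 were lower without the 1st.

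Of 13 tested genes for receptors of the EGFR family, their ligands and regulators of the receptors, 4 were higher and 3 lower, with a median of 0.08. The receptor partner genes ERBB3 and ERBB2 were lower, ERBB3 at 109.6 and 75.5 against 262 and 359 CPM (-1.74 ± 0.26) and ERBB2 by -0.998 ± 0.20. Ligand genes split, since TGFA was higher (1.63 ± 0.28) and HBEGF was higher (2.51 ± 0.51) while EGF was lower (-1.57 ± 0.22). EGFR did not pass the test, with 665 and 631 CPM in tolerant and 823 and 1202 CPM in parental cells (-0.62 ± 0.24, adjusted p = 0.0588).

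ERK target genes stood higher in tolerant than in parental cells in the presence of the inhibitor. Of 18 genes tested 11 were higher and 0 lower, with a median of 1.26. IER3, an early response gene, was at 30.2 and 62.00 CPM in tolerant and 4.78 and 3.82 CPM in parental cells (3.07 ± 0.29, adjusted p = 3.12e-06). DUSP4, a phosphatase that switches off ERK, was at 45.4 and 77.6 against 11.4 and 10.3 CPM (2.35 ± 0.32, adjusted p = 7.68e-05), and the ETS factor gene ETV5 at 5.84 and 18.3 against 0.86 and 0.77 CPM (2.66 ± 0.38, adjusted p = 0.000105). CCND1, the G1 cyclin downstream of ERK, was at 190.3 and 315 against 50.1 and 108 CPM (1.72 ± 0.27), and FOSL1, an AP-1 subunit gene, at 7.54 and 35.5 against 0.49 and 0.54 CPM (3.54 ± 0.66). Every one of these genes was above the parental range in both tolerant libraries. FOSL1 was among the 20 largest rises, whose rule required this. The rest were named from the same libraries, so the separation is no independent support.

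DUSP6, the ERK phosphatase most used as a readout of the pathway, was low in all 4 libraries, at 1.01 and 3.77 CPM in tolerant and 0.43 and 0.44 CPM in parental cells. Its difference of 1.11 ± 0.41 passed narrowly (adjusted p = 0.0465), and no longer did so without either parental library or the 2nd tolerant one, where the adjusted p was 0.122, 0.121 and 0.475. It also did not pass without the filter on low genes or in limma-voom. MYC (0.63 ± 0.29), SPRY4 (0.54 ± 0.44) and EGR1 (0.42 ± 0.43) did not pass the test. The count of ERK genes without the 2nd tolerant library was 8 higher and 0 lower, with a median of 0.65.

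Genes for DNA synthesis were higher in tolerant cells. Of 22 replication genes 17 were higher and 0 lower, with a median of 1.39. CDC6, which loads the replicative helicase, was at 21.3 and 25.6 CPM in tolerant and 2.97 and 3.77 CPM in parental cells (2.48 ± 0.35, adjusted p = 8.82e-05). MCM6, a subunit of that helicase, was at 31.4 and 40.1 against 9.83 and 11.2 CPM (1.66 ± 0.36, adjusted p = 0.00242), and MCM10 and the clamp loader gene RFC3 differed by 2.29 ± 0.39 and 1.95 ± 0.36. The count was 7 of 22 without the 2nd tolerant library and 9 of 22 without the 1st parental one.

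Replication genes are driven by E2F factors. The letters TTTGGCGC, TTTCGCGC and TTTCCCGC, variants of the E2F site, were found in the windows of 14 of the 19 replication genes (of 22) that had one, against 2.794% of all 27305 windows and 4.516% of the 10717 windows of tested genes. CDC6 (chr17:40287629-40287928, plus strand) and MCM6 (chr2:135876394-135876693, minus strand) are shown because they are among the genes of this list with the lowest p and hold these letters, given in capitals. The match in CDC6 begins 8 bases into the transcript, and the 4 matches in MCM6 form overlapping pairs at 152 and 148 and at 90 and 86 bases before the start.
CDC6: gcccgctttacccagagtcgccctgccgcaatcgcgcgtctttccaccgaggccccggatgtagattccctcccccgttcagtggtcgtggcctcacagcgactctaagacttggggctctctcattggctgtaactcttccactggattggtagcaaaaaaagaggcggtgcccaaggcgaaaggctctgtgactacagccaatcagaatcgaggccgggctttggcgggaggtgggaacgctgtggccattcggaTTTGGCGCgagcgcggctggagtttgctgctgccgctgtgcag
MCM6: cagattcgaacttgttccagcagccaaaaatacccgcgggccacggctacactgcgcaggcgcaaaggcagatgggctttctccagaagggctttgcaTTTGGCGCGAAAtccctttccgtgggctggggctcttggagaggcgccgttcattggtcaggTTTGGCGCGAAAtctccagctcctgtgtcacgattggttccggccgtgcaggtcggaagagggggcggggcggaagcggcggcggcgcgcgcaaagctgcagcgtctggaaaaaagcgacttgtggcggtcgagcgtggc

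Mitosis genes had positive differences throughout but seldom passed the test. CDK1 (2.05 ± 0.65, adjusted p = 0.0224) and BIRC5 (1.69 ± 0.54, adjusted p = 0.0232) were the 2 of 20 genes that did, and the median of the list was 1.29. CDK1, the kinase that starts mitosis, was at 60.5 and 65.2 CPM in tolerant and 6.58 and 30.4 CPM in parental cells, and the 2 parental libraries lay further apart than the 2 tolerant ones. Without the 1st parental library 0 of 20 passed and the median was 0.42, and without the 2nd 17 passed and the median was 2.18. Without the 1st and the 2nd tolerant library 1 and 0 passed. The call on this list therefore rests on which parental library is used.

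G1 regulators split, with 4 of 14 higher and 6 lower. The CDK inhibitor gene CDKN1A (p21) was higher, at 17.7 and 32.95 against 5.27 and 9.54 CPM (1.63 ± 0.39), as was CDKN2B (1.57 ± 0.48). The lower members included the antiproliferative gene BTG1 (-1.03 ± 0.16), the pocket protein gene RBL2 (-0.89 ± 0.16) and the cyclin G2 gene CCNG2 (-1.39 ± 0.34). GADD45A, a growth arrest gene induced by stress, was among the 20 largest rises, at 151 and 254 against 20.9 and 11.3 CPM (3.58 ± 0.45). Without the 2nd tolerant library 0 of the 14 were higher and 3 lower, and CDKN1A and CCNG2 did not pass. CDKN1A did not pass without the 1st parental library either, where 2 were higher, and CDKN2B passed in 0 of the 4 fits that each left out 1 library.

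Most genes on a joint list of FOXO targets and PI3K brakes were lower in tolerant cells, 11 of 16 lower and 1 higher, with a median of -0.76. The list also holds FOXO genes, IRS1 and IRS2, and its count does not separate targets from brakes. TNFSF10, which encodes the death ligand TRAIL, was at 3.77 and 1.06 CPM in tolerant and 123 and 159 CPM in parental cells, a difference of -5.49 ± 0.37 (adjusted p = 2.41e-07). DEPP1, a FOXO target gene, was at 21.1 and 10.3 against 154 and 150.2 CPM (-3.28 ± 0.36, adjusted p = 1.21e-05). SESN1, a stress-induced inhibitor of mTORC1, differed by -1.42 ± 0.20, the pseudokinase gene TRIB2 by -2.27 ± 0.41 and FOXO3 by -0.85 ± 0.17. The member that was higher was KLF6 (1.22 ± 0.28). Without the 2nd tolerant library 7 of 16 were lower and 0 higher, and KLF6 did not pass.

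Apoptosis genes of the BCL2 family shifted less. Of 11 pro-apoptotic genes, 6 were higher and 1 lower, with BID (0.79 ± 0.13), BAK1 (0.91 ± 0.19) and BAX (0.59 ± 0.17) among the first and HRK the member that was lower, at 9.61 and 6.67 against 28.7 and 34.2 CPM (-1.84 ± 0.35). BCL2L11, which encodes BIM, the protein that mediates death after EGFR inhibition, was at 42.6 and 32.1 against 52.6 and 42.04 CPM, and the populations overlapped (-0.34 ± 0.18, adjusted p = 0.151). Among 8 survival genes 3 were higher and 2 lower. BIRC3, an inhibitor of apoptosis induced by NF-kB, was at 119 and 134 against 12.03 and 11.97 CPM (3.29 ± 0.44, adjusted p = 5.99e-05). MCL1 was lower, at 134 and 109 against 206 and 168 CPM (-0.62 ± 0.13, adjusted p = 0.00181), as was CFLAR (-0.79 ± 0.15), and BCL2L1 was higher by 0.66 ± 0.16, which did not pass without the 1st parental or the 2nd tolerant library. In either of these fits 1 of the 8 survival genes was higher. BAX did not pass without the 2nd parental or the 2nd tolerant library.

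Of the genes that fell furthest, several encode keratins and proteins of stratified epithelium. KRT4 was at 9.58 and 2.64 CPM in tolerant and 282 and 305 CPM in parental cells (-5.57 ± 0.54, adjusted p = 3.91e-06). CASP14, a caspase of cornifying keratinocytes, was at 33.8 and 32.02 against 1402 and 1808 CPM (-5.55 ± 0.33, adjusted p = 7.09e-08). Both libraries of tolerant cells lay far below both parental libraries for these genes, although the rule for the largest falls required non-overlap. Of 11 squamous and basal genes, 8 were lower and 1 higher, with a median of -2.25, and KRT13, KRT15 and KRT5 differed by -2.93 ± 0.26, -3.85 ± 0.40 and -3.08 ± 0.33. KRT6A (-2.52 ± 0.22) and KRT14 (-1.48 ± 0.20) have near-identical relatives, so reads may be shared between copies. The member that was higher was S100A2 (0.65 ± 0.21), and TP63, the factor that defines basal cells, did not pass (0.60 ± 0.23). Of the 4 fits that each left out 1 library, S100A2 passed only in that without the 2nd parental one.

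Other genes among the 20 largest falls were CP, DMBT1, AGR2, ALDH3B2, SEMA5B and RHOV. CP, which encodes the copper protein ceruloplasmin, was at 0.12 and 0.07 against 198 and 27.5 CPM (-6.11 ± 0.64, adjusted p = 7.07e-06). DMBT1, a secreted mucosal glycoprotein, was at 0.17 and 0.02 against 103 and 11.6 CPM (-5.05 ± 1.11), where the 2nd tolerant library had the lowest value it listed. For both genes the 1st parental library was well above the 2nd, and non-overlap of the 2 populations was a condition of the rule that picked them. AGR2, a disulfide isomerase of secretory cells (-3.72 ± 0.41), the aldehyde dehydrogenase gene ALDH3B2 (-3.93 ± 0.31), the semaphorin gene SEMA5B (-4.25 ± 0.42) and the GTPase gene RHOV (-3.78 ± 0.20) were lower too. RHOV was the most even of these, at 4.03 and 3.90 against 62.8 and 72.1 CPM.

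Epithelial genes as a whole were lower more often than higher, 11 of 21 lower and 3 higher, with a median of -0.68. The simple keratin genes KRT8, KRT18 and KRT19 were lower (-1.26 ± 0.16, -0.89 ± 0.16 and -0.88 ± 0.17) and KRT7 was higher (1.28 ± 0.22). The tight junction genes TJP3, OCLN and CLDN3 were lower (-1.82 ± 0.30, -1.04 ± 0.17 and -1.61 ± 0.28), and CLDN1 was higher (1.71 ± 0.35). The epithelial adhesion genes CDH1 (0.32 ± 0.17) and EPCAM (0.48 ± 0.19) did not pass the test. Of 11 alveolar and airway genes 5 were lower and 1 higher, with MUC1 at 32.8 and 17.5 against 118 and 91.96 CPM (-2.07 ± 0.33) and the forkhead factor gene FOXA1 lower (-1.21 ± 0.22) while GATA6 was higher (1.24 ± 0.20).

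Of 10 mesenchymal genes 4 were higher and 1 lower, with a median of 0.37. VIM, which encodes vimentin, was at 3.65 and 4.78 against 0.95 and 0.91 CPM (1.43 ± 0.46, adjusted p = 0.0247). The factor gene SNAI1 did not pass (-0.32 ± 0.23). VIM did not pass without either parental library or the 2nd tolerant one, and without the 2nd parental or the 2nd tolerant library 2 of the 10 were higher. Of 17 genes of TGF-beta and BMP signalling 7 were higher and 1 lower, 4 higher without the 2nd parental library, with BMP4 at 26.9 and 28.04 against 7.84 and 10.2 CPM (1.52 ± 0.25) and the coreceptor gene TGFBR3 lower (-1.58 ± 0.27).

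**Figure D2:**
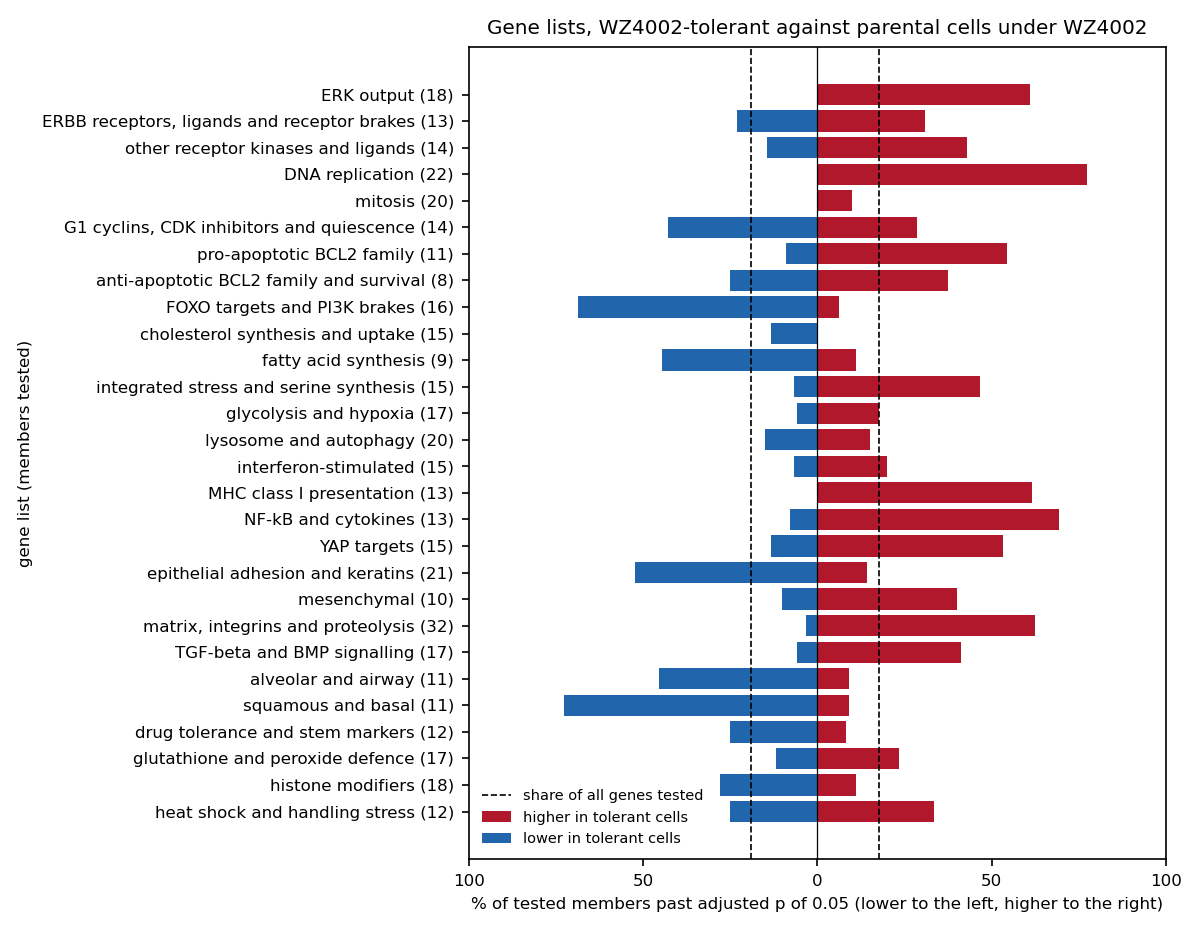
Share of the tested members of each gene list with an adjusted p under 0.05 that were higher (to the right) or lower (to the left) in WZ4002-tolerant than in parental cells under WZ4002, with the number of members tested beside each name. Dashed lines mark the share of all 15485 genes, 17.6% higher and 19% lower.

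Genes for antigen presentation and NF-kB targets were higher in tolerant cells. Of 13 MHC class I genes 8 were higher and 0 lower (median 0.94), with HLA-B at 151 and 189 against 12.03 and 24.9 CPM (3.21 ± 0.28), the light chain gene B2M at 647 and 726 against 267 and 260.5 CPM (1.38 ± 0.16) and the peptide transporter gene TAP2 higher by 1.59 ± 0.20. HLA genes resemble each other, and reads may be shared among them. Interferon-stimulated genes did not move as a group, with 3 of 15 higher and 1, OAS1, lower (-1.60 ± 0.29). Without the 1st parental library 3 of these 15 genes were lower, and 1 MHC class I gene was lower without it or without the 1st tolerant library. Without the 1st tolerant library 2 interferon-stimulated genes were lower.

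Of 13 NF-kB target and cytokine genes 9 were higher and 1 lower, with a median of 0.83. TNFAIP3, the feedback inhibitor A20 of the pathway, was at 100.3 and 113 CPM in tolerant and 15.2 and 12.3 CPM in parental cells (2.87 ± 0.30, adjusted p = 8.35e-06). IL6 was at 5.21 and 14.2 against 0.06 and 0.02 CPM (3.22 ± 0.44, adjusted p = 6.76e-05), where the 2nd parental library had the lowest value it listed. The NF-kB subunit gene RELB and the adhesion gene ICAM1 differed by 2.06 ± 0.45 and 1.55 ± 0.37. TNFAIP2 was the member that fell (-1.03 ± 0.26), and it did not pass without the 2nd parental or the 2nd tolerant library. ICAM1 did not pass without the 1st parental library.

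The kappaB letters GGGANTTTC or GGGAATTCC were found in 4 of the 11 of these 13 genes that had a window, against 1.516% of all 27305 windows and 1.278% of those of tested genes. TNFAIP3 (chr6:137867009-137867308, plus strand) and IL6 (chr7:22726950-22727249, plus strand) are shown, with the match in capitals 66 and 73 bases before the start.
TNFAIP3: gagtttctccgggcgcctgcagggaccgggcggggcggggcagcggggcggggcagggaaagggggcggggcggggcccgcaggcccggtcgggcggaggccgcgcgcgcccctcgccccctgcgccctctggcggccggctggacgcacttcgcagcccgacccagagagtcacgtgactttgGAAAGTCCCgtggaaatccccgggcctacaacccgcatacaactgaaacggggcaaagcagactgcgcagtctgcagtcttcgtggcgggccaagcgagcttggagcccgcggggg
IL6: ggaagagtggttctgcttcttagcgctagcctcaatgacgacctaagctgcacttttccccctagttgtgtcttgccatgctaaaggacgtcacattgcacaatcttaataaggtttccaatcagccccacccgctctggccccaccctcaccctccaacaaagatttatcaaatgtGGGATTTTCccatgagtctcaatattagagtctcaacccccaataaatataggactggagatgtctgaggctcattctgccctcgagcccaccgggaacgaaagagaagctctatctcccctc

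Of 9 fatty acid synthesis genes 4 were lower and 1 higher, with a median of -0.43. SREBF1, which encodes the master regulator of lipid synthesis, was at 61.1 and 42.7 against 236 and 183 CPM (-2.004 ± 0.25) and SCD, the desaturase, at 148 and 76.1 against 1429.7 and 376 CPM (-2.78 ± 0.46). FASN (-1.70 ± 0.26) and ACSS2 (-2.15 ± 0.34) were also lower, while ACSL3, an acyl-CoA synthetase, was higher (1.20 ± 0.28). Without the 1st parental library 3 of the 9 were higher. Of 15 cholesterol genes 0 were higher and 2 lower, INSIG1 among them (-1.27 ± 0.38), with a median of -0.39. The parental libraries decided this list: without the 1st the median was 0.27 and 1 gene was lower, and without the 2nd the median was -1.12 and 15 were lower. INSIG1 did not pass without the 1st parental or the 2nd tolerant library. Without the 2nd tolerant library 1 gene was lower and without the 1st 3 were.

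The integrated stress response, which raises amino acid uptake and serine synthesis when translation is held back, gave a contrast between the treatments. Under WZ4002 7 of 15 genes were higher in tolerant cells and 1 lower, with a median of 0.78. Of these, 4 were higher without the 2nd tolerant library, and 2 were lower without the 2nd parental one. Under vehicle 0 were higher and 10 lower, with a median of -1.09, where 18.4% of all genes passed. SLC7A5, the large neutral amino acid transporter, was at 205 and 355 CPM in tolerant and 53.4 and 37.4 CPM in parental cells under WZ4002 (2.57 ± 0.36) and at 211 and 261 against 462 and 377 CPM under vehicle (-0.83 ± 0.36, which did not pass). PSAT1, an enzyme of serine synthesis, was at 31.4 and 43.7 against 11.3 and 15.2 CPM under WZ4002 (1.43 ± 0.30) and 61.3 and 45.05 against 210.2 and 187 CPM under vehicle (-1.90 ± 0.30). For both genes parental cells were the higher under vehicle and the lower under the drug.

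The difference between the 2 treatments was itself tested. Of the 15 genes 12 differed between treatments, all with the higher population difference under WZ4002, against 4.49% of all genes. Leaving out single libraries gave 8 to 12, the lowest without the 1st parental vehicle, the 2nd parental WZ4002 or the 2nd tolerant WZ4002 library. ASNS, asparagine synthetase, had the largest, 4.43 ± 0.60 (adjusted p = 0.00131), and was at 15.4 and 19.3 CPM in tolerant and 6.67 and 7.03 CPM in parental cells under WZ4002 and at 8.49 and 9.29 and 104 and 79.2 CPM under vehicle. The difference under WZ4002 alone (1.22 ± 0.42, adjusted p = 0.0341) did not pass without any one of the 4 libraries. SLC1A4, a serine transporter gene named for its difference between treatments, was at 9.93 and 11.5 against 2.85 and 2.55 CPM under WZ4002 and 5.42 and 7.58 against 27.02 and 20.5 CPM under vehicle (3.38 ± 0.30, adjusted p = 9.99e-05). ATF4, the factor that drives the response, was lower in tolerant cells under both treatments (-0.60 ± 0.13 and -1.36 ± 0.13).

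**Figure D3:**
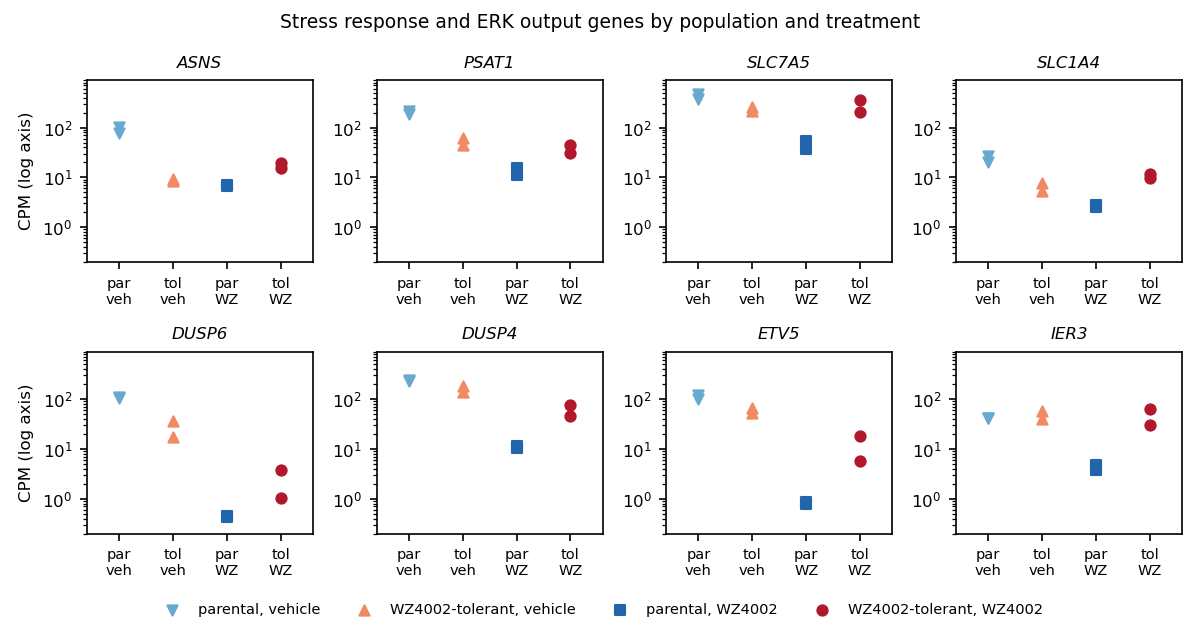
CPM on a log axis of 4 stress response genes (top) and 4 ERK output genes (bottom) in parental (par) and WZ4002-tolerant (tol) cells given vehicle (veh) or WZ4002 (WZ), with a point for each library. In parental cells all but IER3 fall from above the tolerant level under vehicle to below it under WZ4002.

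Across all genes the population difference under WZ4002 was compared with that under vehicle, which shares no library with it. Under vehicle 2856 genes passed (18.4%), and without any 1 of its 4 libraries 1300 to 1677. Of the 5675 genes called under WZ4002, 1739 (30.6%) were called in the same direction under vehicle, which is 60.9% of the vehicle calls, and 53 in the opposite direction. FN1 and AXL also differed under vehicle (5.83 ± 0.46 and 3.13 ± 0.27). Their difference under WZ4002 minus that under vehicle did not pass (-0.81 ± 0.64 and 0.59 ± 0.39), which does not show the differences to be equal. For FN1 the 2 tolerant vehicle libraries were at 706 and 2044 CPM. ABCG2 differed by 1.29 ± 0.32 and KRT4 by -1.28 ± 0.54 under vehicle. KRT4 did not pass under vehicle, and the vehicle call of ABCG2 depended on single libraries. The size differed between treatments for 696 genes (4.49%), 325 upward and 371 downward. Leaving out single libraries gave 174 (the 2nd tolerant WZ4002 library), 222 (the 1st parental vehicle library), 274 (the 1st tolerant vehicle library) and 1076 (the 1st parental WZ4002 library), and 500 to 884 otherwise. Of the 696, 436 passed only under WZ4002, 139 only under vehicle, 65 under both in the same direction, 53 under both in opposite directions and 3 under neither.

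ERK targets were again among the 696, with 7 of 18 having a higher difference under WZ4002, or 4 without the 2nd tolerant WZ4002 library. Under vehicle 2 of the 18 were higher in tolerant cells and 2 lower, with a median of -0.33, where 18.4% of all genes passed. DUSP6 was lower in tolerant cells under vehicle, at 36.3 and 17.7 against 110.3 and 103 CPM (-2.03 ± 0.41), and its difference changed by 3.14 ± 0.59 (adjusted p = 0.00835). ETV5 and IER3 changed by 3.56 ± 0.54 and 2.88 ± 0.41. EGFR was higher in tolerant cells under vehicle, at 1543 and 1199 against 658 and 554 CPM (1.17 ± 0.24), and its change between treatments was -1.79 ± 0.35 (adjusted p = 0.00957). Without the 2nd tolerant WZ4002 library the change of both DUSP6 and EGFR had an adjusted p of 0.0501, and DUSP6 did not pass under vehicle without the 2nd tolerant vehicle library. Of the squamous and basal genes 6 of 11 had a lower difference under WZ4002, or 3 without the 2nd tolerant WZ4002 library, with KRT4 changing by -4.29 ± 0.77 (adjusted p = 0.00606), and TNFSF10 changed by -4.04 ± 0.53 (adjusted p = 0.000956). EFEMP1, a fibulin of the matrix, was higher in tolerant cells under vehicle (1.42 ± 0.25) and lower under WZ4002 (-2.42 ± 0.25). The YAP targets, which were higher in 9 of 15 genes under vehicle, and the MHC class I genes, with 9 of 13, had 2 and 0 members with a higher difference under WZ4002, and 2 and 0 with a lower one. The YAP counts were 0 and 0 without either parental vehicle library, the 2nd parental WZ4002 or the 2nd tolerant WZ4002 library, and the vehicle count of MHC genes was 6 and 4 without the 2nd parental and the 2nd tolerant vehicle library.

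**Figure D4:**
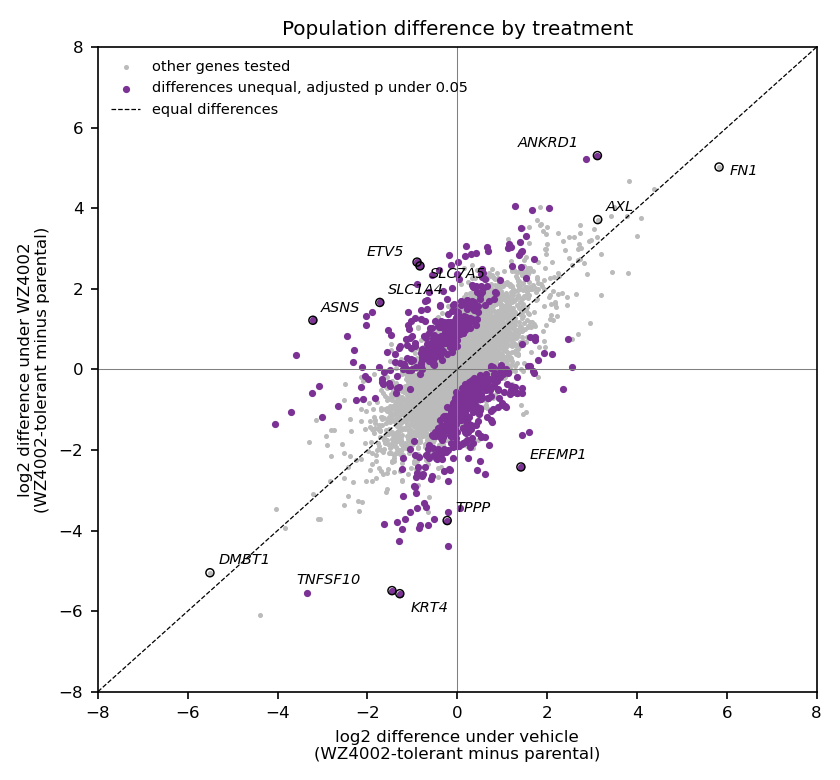
Log2 difference between WZ4002-tolerant and parental cells under WZ4002 (vertical axis) and under vehicle (horizontal axis) for each of 15485 genes. The 696 genes whose differences were unequal are in purple, with named examples circled, and FN1 and AXL lie near the dashed line of equal differences.

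The like comparison with gefitinib, a reversible EGFR inhibitor, used gefitinib-tolerant and parental cells under gefitinib and shares no library with the one under WZ4002. There 4942 genes passed (31.9%), or 3003 and 3193 without the 1st and the 2nd parental library, 2625 without the 1st tolerant one and 4161 without the 2nd. Of the genes called under WZ4002, 3639 (64.1%) were called in the same direction under gefitinib, 73.6% of the gefitinib calls, and 0 in the opposite direction. Over all 15485 genes the differences had a Pearson correlation of 0.896, given as a description because genes are not independent. ANKRD1 differed by 4.03 ± 0.42, INHBA by 4.09 ± 0.44, AXL by 4.24 ± 0.27, KRT4 by -5.33 ± 0.54 and CASP14 by -4.51 ± 0.33 under gefitinib. Mitosis genes were higher in 18 of 20 and cholesterol genes lower in 14 of 15 of their members under gefitinib, beside the counts of 2 and 2 under WZ4002. These counts too rest on single libraries, since leaving out 1 gave 1 to 14 for mitosis and 4 to 7 for cholesterol.

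A test of the difference between the 2 inhibitor comparisons called 0 genes (0%) in limma, with 719 at an unadjusted p under 0.05 and 0 in limma-voom. For 74.4% of genes the 95% interval of that difference stayed within 1 in either direction on the log2(CPM + 1) scale. Low genes meet this bound more easily, because the pseudocount shrinks their differences, so it does not show them to be alike. For the genes outside the bound the 2 comparisons cannot be called alike or unlike at this number of libraries. Without the 1st parental WZ4002 library 148 genes passed.

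**Figure D5:**
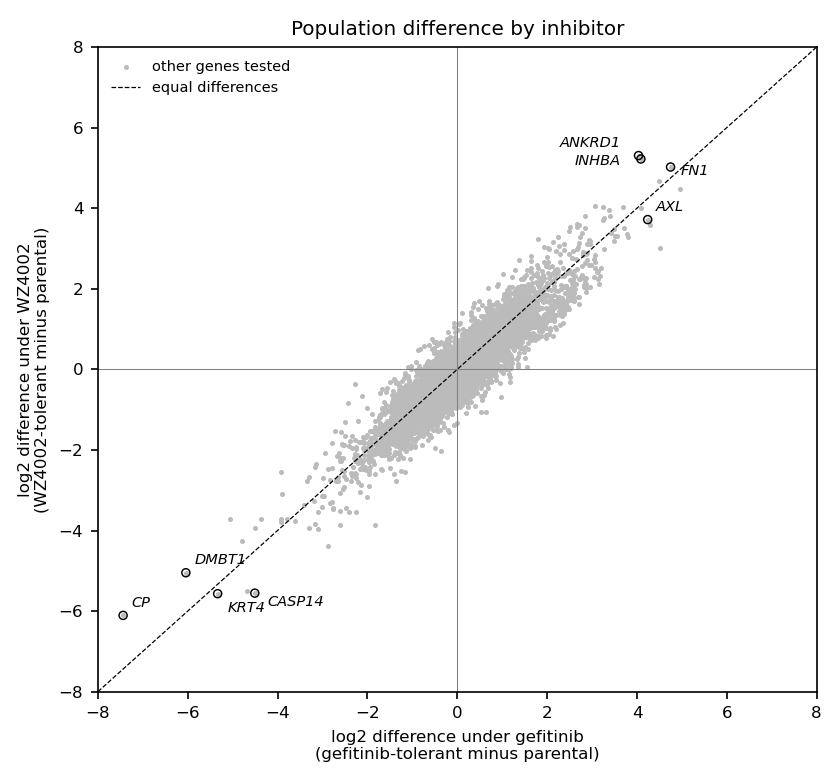
Log2 difference between tolerant and parental cells under WZ4002 (vertical axis) and between gefitinib-tolerant and parental cells under gefitinib (horizontal axis) for 15485 genes. The points lie along the dashed line of equal differences, with a Pearson correlation of 0.896 across genes.

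Several gene groups did not move as a whole under WZ4002. Of 17 glycolysis and hypoxia genes 3 were higher and 1 lower: HK2, the hexokinase, was at 21.9 and 26.7 against 151 and 163 CPM (-2.65 ± 0.25) and PFKP, a phosphofructokinase, at 88.5 and 102 against 21.8 and 16.7 CPM (2.25 ± 0.25). Of 20 lysosome genes 3 were higher and 3 lower, of 17 glutathione and peroxide genes 4 and 2, of 18 histone modifier genes 2 and 5, and of 12 heat shock and handling stress genes 4 and 3. Without the 2nd tolerant library the counts of higher genes were 2 for glutathione, 1 for histone modifiers and 2 for heat shock, and 2 histone modifiers were lower, as without the 2nd parental library. Without the 1st parental library 2 heat shock genes were higher, and without the 2nd 2 glycolysis genes were lower. HDAC9 was the largest change among the histone modifiers, at 36.5 and 42.2 against 5.30 and 3.28 CPM (2.95 ± 0.26), and the histone demethylase gene KDM1A was lower (-1.05 ± 0.17). Of 12 drug tolerance and stem genes 1, ABCG2, was higher and 3 lower (3 and 2 without the 1st tolerant library, 2 and 1 without the 2nd parental one), and the tolerance gene KDM5A did not pass (-0.29 ± 0.14). Of 2 neuroendocrine genes tested NCAM1 was lower (-1.16 ± 0.30).

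Few markers of other cell types could be tested, 2 of 12 for leukocytes, 2 of 8 for endothelium and 0 of 9 for fibroblasts. By symbol, only 2, 4 and 5 of them were found among the genes listed, and the filter on low genes removed the rest. Summed over the leukocyte markers measured the CPM was 10.6 and 8.64 in tolerant and 2.02 and 2.24 in parental cells, with ITGAM accounting for most of it (10.2 and 8.13 against 0.89 and 0.81 CPM). The endothelial sum was 38.2 and 14.8 against 5.11 and 4.85 CPM, most of it CDH5 (37.2 and 13.96 against 2.82 and 1.91 CPM), and the fibroblast sum was 1.12 to 1.5 against 0.73 to 0.96 CPM. CDH5 was higher in tolerant cells (2.84 ± 0.35) and so was ITGAM (2.45 ± 0.25). PTPRC and PECAM1 had no match by symbol among the genes listed, so nothing can be said of them. The part of these markers in the gene groups above was not tested.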

How the data were processed

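Polyadenylated RNA from PC9 cells was made into libraries with a directional kit after column extraction, per the labels' protocols. The submitters' processing notes name STAR, HTSeq and hg19, and their versions and strand setting are not given in the sources used here. The deposited values are CPM, given to 2 decimals. The table lists 17165 genes, and 15958 have a symbol. The lowest value in each library, that of 1 read, was held by 467 to 823 genes and the next by 159 to 279, so the lowest may include genes with no read. All counting error here covers reads, not molecules.

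Genes that reached a CPM of 1 in 2 or more libraries were tested (15485, leaving out 1680). A model with 11 group means over all 22 libraries was fitted to log2(CPM + 1) with limma 3.58.1 in R 4.3.3 (variance trend, 11 residual degrees of freedom and 4.8 prior ones at the median), with Benjamini-Hochberg adjustment over all genes and a threshold of 0.05. The comparisons were tolerant against parental cells under WZ4002, under vehicle and under gefitinib, and the differences between them. The fit was also run on simulated counts that had the same dispersion in all genes and groups, which does not cover groups of unequal spread. Libraries of a group differed by more than sampling noise (chi-square per gene of 4.105 to 96.8) and were counted as 2 samples. The members of the comparison and the gene lists were chosen with earlier results of these data known. The rule for naming genes took the 20 largest differences in each direction among genes past the threshold with a mean CPM of at least 5 in a population and no overlap of the groups, for every list its members of lowest p (up to 4), DUSP6, EGFR, BCL2L11 and MCL1, and up to 5 in each direction of a difference between treatments. Members named outside this rule, such as CCN2, MET, TP63, EGR1 and KDM5A, were chosen after their values were seen. Reads of genes with near-identical copies, such as keratin, HLA and tubulin genes, may be shared. No mitochondrial transcript of 9 listed was tested. RefSeq promoter windows are on GRCh38.p14 and were matched by symbol, and no position in hg19 was used. As alternatives, the replicate number was added as a block, genes were left unfiltered, the CPM were scaled by median of ratios, the pseudocount was set to 0.1, the spread was taken from the 4 libraries alone, and each library was left out in turn. Chosen after seeing the data, limma-voom was run on reads recovered from the CPM steps, and the list counts without single libraries were taken for the comparisons under vehicle and gefitinib and for the difference between treatments. Within the rounding of the 2 decimals, 99.99% or more of the values in each library were whole multiples of the CPM of 1 read, where 23.6 to 50.4% would be by chance, and limma-voom called 5860 genes under WZ4002. Some members of the gene lists are not reported here by name, and the counts over the lists include them.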

Additional observations from a re-analysis of the deposited data

Results flagged for a closer look

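For 696 genes the difference between WZ4002-tolerant and parental cells was unequal under WZ4002 and under vehicle by the interaction test. The values here are the log2 difference under WZ4002 minus that under vehicle. Among the genes described, 17 kept this call whichever library was left out. They rose in ASNS (4.43), ETV5 (3.56), SLC7A5 (3.40), SLC1A4 (3.38), PSAT1 (3.33), CDH5 (3.02), DUSP4 (2.92), IER3 (2.88), ABCG2 (2.76) and ACSL3 (2.23). They fell in KRT4 (-4.29), TNFSF10 (-4.04), EFEMP1 (-3.84), FGFR3 (-2.53), RHOV (-2.44), KRT6A (-2.23) and HK2 (-1.86).

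A further 25 of the 42 genes described with this call lost it without at least 1 library, 24 of them without the 2nd tolerant library under WZ4002. The positive values were DUSP6 (3.14), INHBA (2.36), ADAMTS12 (2.28), ANKRD1 (2.19), MCAM (1.95), CDC6 (1.92), ITGA2 (1.75), PFKP (1.63), BCL2L1 (0.87) and ATF4 (0.76). The negative ones were SEMA5B (-2.95), CASP14 (-2.21), KRT15 (-2.21), KRT5 (-2.16), KRT13 (-1.98), EGFR (-1.79), MMP7 (-1.78), KRT14 (-1.42), SESN1 (-1.16), CFLAR (-1.10), FGFR1 (-1.01), AMOTL1 (-0.99), FOXO3 (-0.92), KRT8 (-0.87) and MCL1 (-0.79).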

How the results depend on the processing

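Of the 4 libraries compared under WZ4002, leaving out the 2nd tolerant one gave the fewest genes for that comparison. Leaving out each library in turn gave 3015 to 5159 genes for the comparison under WZ4002, 1300 to 1677 under vehicle, 174 to 1076 for the difference between treatments, 2625 to 4161 under gefitinib and 0 to 148 for the difference between inhibitors. With the spread estimated from the 4 libraries alone, 2785 genes passed under WZ4002. Leaving genes unfiltered, median-of-ratios scaling, a pseudocount of 0.1 and limma-voom on recovered reads kept the 5 counts within 1.5 times. Where an arm kept 1 library, that library was assumed to vary like the other groups. Of 124 described genes called under WZ4002, 18 lost the call without at least 1 library. Calls of described genes also changed in the other settings, and not every such change is named here. DUSP6 lost its call with no filter, the block, the 4 libraries alone and limma-voom, and DMBT1 and ASNS lost theirs with limma-voom. TP63 passed with a pseudocount of 0.1. The cause was not tested. With the replicate number as a block the counts were 5999 under WZ4002, 3132 under vehicle, 853 for the difference between treatments, 5222 under gefitinib and 0 between inhibitors. Deviations of same-numbered libraries had a correlation of 0.053 between the 2 groups under WZ4002, so the numbers were not taken to pair the libraries. The planned edgeR test was not run: a coarser check of the low values did not accept them as whole reads, and limma-voom was run in its place on reads from a refined step, so its counts rest on that step. Depth limits genes near the lowest value of a library, and the 2 libraries per group limit everything else.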
